A study of Mus musculus with 6 samples.

Results

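Myocardin, serum response factor (SRF) and 7 other transcriptional regulators of smooth muscle were followed in the thoracic aorta of mice infused with angiotensin II (Ang-II). The members are the 9 genes Myocd, Srf, Mrtfa (formerly Mkl1), Mrtfb (formerly Mkl2), Klf4, Klf2, Gata6, Foxo4 and Tead1, listed by symbol, out of 19057 genes that the array annotates. All 21 probes annotated to them were taken, and 11 of these, from 6 genes, were detected on at least 2 of the 6 arrays. C57Bl/6 mice aged 12 weeks formed the 4 groups compared, each of 5 mice whose RNA was pooled according to the study's design text. WT saline mice were wild-type littermates given 0.9% saline by osmotic minipump for 14 days, and WT Ang-II mice were littermates given 1.25 ug/kg/min Ang-II in that saline for the same time. TG saline and TG Ang-II mice carried the TG SM-CaMKIIN transgene and had the same infusions. The transgene makes a peptide inhibitor of CaMKII (a kinase activated by calcium and calmodulin) called CaMKIIN, in smooth muscle only, and the sources used here do not name its promoter. There was 1 Illumina array for each saline group and 2 for each Ang-II group. Sample titles describe both Ang-II arrays per genotype as biological replicates, and nothing says which mice entered each array. The p-values therefore measure only array-to-array spread, possibly technical, and the fit gives the single saline array of a genotype the spread seen among Ang-II arrays.

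SRF is a transcription factor that binds the CArG box, an AT-rich element in the promoters of many contractile genes of smooth muscle. Myocardin is its co-activator in smooth and heart muscle, and the myocardin-related factors Mrtfa and Mrtfb do the same work in response to actin dynamics, while ternary complex factors direct SRF to immediate early genes instead. KLF4 and FOXO4 are known to oppose myocardin in smooth muscle, GATA6 and TEAD1 bind beside SRF at some muscle promoters, and KLF2 is a flow-regulated factor of endothelium.

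The promoter of Srf itself shows CArG boxes. Those of the contractile genes Acta2 (smooth muscle alpha-actin) and Myl9 (the regulatory light chain of smooth muscle myosin) show a CArG-like element. The promoter of Klf2 shows a MEF2 element. Each sequence is the 250 bases before the gene's start in RefSeq (GRCm38.p6), 5′ to 3′ on the gene's strand. Capitals mark CArG boxes in Srf, a CArG box followed by a CArG-like element in Myl9, CArG-like elements in Acta2 and a MEF2 element in Klf2.
Srf (chr17:46556163-46556412, minus strand): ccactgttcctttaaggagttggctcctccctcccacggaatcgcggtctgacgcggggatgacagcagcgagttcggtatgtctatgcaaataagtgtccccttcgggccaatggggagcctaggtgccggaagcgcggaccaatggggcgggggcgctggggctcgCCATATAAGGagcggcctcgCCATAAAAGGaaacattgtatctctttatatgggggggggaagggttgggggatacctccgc
Klf2 (chr8:72318812-72319061, plus strand): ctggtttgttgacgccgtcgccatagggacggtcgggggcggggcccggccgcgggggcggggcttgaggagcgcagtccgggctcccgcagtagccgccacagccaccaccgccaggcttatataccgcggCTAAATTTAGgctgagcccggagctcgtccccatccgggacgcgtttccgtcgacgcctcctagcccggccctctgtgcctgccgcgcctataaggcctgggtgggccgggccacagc
Acta2 (chr19:34255374-34255623, minus strand): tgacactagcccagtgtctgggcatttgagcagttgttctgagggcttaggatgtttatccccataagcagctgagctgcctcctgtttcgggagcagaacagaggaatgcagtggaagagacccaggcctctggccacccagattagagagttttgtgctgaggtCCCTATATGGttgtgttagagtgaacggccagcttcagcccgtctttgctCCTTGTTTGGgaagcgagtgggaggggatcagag
Myl9 (chr2:156775214-156775463, plus strand): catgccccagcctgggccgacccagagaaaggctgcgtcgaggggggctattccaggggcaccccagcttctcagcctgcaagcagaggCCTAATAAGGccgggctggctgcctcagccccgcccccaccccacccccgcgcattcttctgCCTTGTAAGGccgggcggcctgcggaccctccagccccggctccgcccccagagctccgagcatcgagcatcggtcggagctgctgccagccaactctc
The search used both strands. Of the 9 members, 5 had a promoter in the RefSeq table (Srf, Mrtfa, Mrtfb, Klf4 and Klf2), and a CArG box was found in Srf alone, at positions -82 and -62 from the start. Over all 32851 promoter windows, 1.47% held a CArG box and 7.24% a CArG-like element, which differs from the CArG box at 1 base of its AT-rich core. A CArG box was found in 3 of 21 contractile genes with a promoter in the table, Myl6, Myl9 and Vcl (1.62% of all genes). A CArG-like element was found in 2 of the 21, Acta2 and Myl9, which is near the share over all genes (9.52% beside 8.33%). The MCAT core CATTCC, the element that TEAD factors bind, was found in Mrtfb among the members. It was found in 8 of the 21 contractile genes and in 14.4% of all genes. The MEF2 element was found in Klf2 and Mrtfb and in 3.42% of all genes. A match is a string of letters in a window, not a shown binding site.

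Between 15393 and 16075 of the 45281 probes were detected on an array (34.0% to 35.5%), and 16749 entered the test. Values are normalized log2 signals, and differences are given with the standard error (SE) of the limma fit over all 6 arrays. A change passed where its p, adjusted by Benjamini-Hochberg across every probe tested, was under 0.05. All 6 smooth muscle markers looked at, Acta2, Myh11, Tagln, Cnn1, Smtn and Lmod1, were detected on every array. Their summed linear signal was 81228 on the WT saline array, 75856 on the TG saline array, 65572 and 64542 on the WT Ang-II arrays and 70778 and 73071 on the TG Ang-II arrays.

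Myocd transcripts rose with Ang-II in TG aorta. Its brightest probe, ILMN_3151642, had log2 signals of 9.91 (WT) and 9.65 (TG) with saline, 10.62 and 10.42 with Ang-II in WT, and 11.17 and 11.13 with Ang-II in TG. All 4 Ang-II arrays lay above both saline arrays, and both TG Ang-II arrays lay above both WT Ang-II arrays. In TG the difference was 1.49 ± 0.17 on the log2 scale, or 2.82-fold (adjusted p = 0.00944). In WT it was 0.60 ± 0.17, or 1.52-fold, and did not pass (adjusted p = 0.0801). Averaged over both genotypes, Myocd rose 2.07-fold (1.05 ± 0.12, adjusted p = 0.00505). Among all probes tested, 7.57% passed in TG, 9.06% in WT and 19.2% in the average. In pooled tissue, more cells that make a transcript and more of it per cell cannot be told apart. The calls in TG and in the average held under every alternative run, while 4 of 12 alternatives also passed the WT difference. Among the alternatives, the run on the deposited values could only repeat the main result, since those values equal the normalized values used here.

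A second probe of Myocd, ILMN_2435360, gave 9.30 on the WT saline array, 9.15 on the TG saline array, 9.72 and 10.01 on the WT Ang-II arrays and 10.49 and 10.67 on the TG Ang-II arrays. It put the arrays in the same order of groups, with no overlap between them. Its differences were 1.43 ± 0.19 in TG (adjusted p = 0.0155), 1.00 ± 0.14 in the average (adjusted p = 0.00848) and 0.57 ± 0.19 in WT, which did not pass (adjusted p = 0.129). Over the 6 arrays the probes correlated with r = 0.958, given as a description, since they share the arrays. The other 3 Myocd probes lay between 4.66 and 6.02, near background, and 2 of them were detected on 1 WT Ang-II array each.

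**Figure D1:**
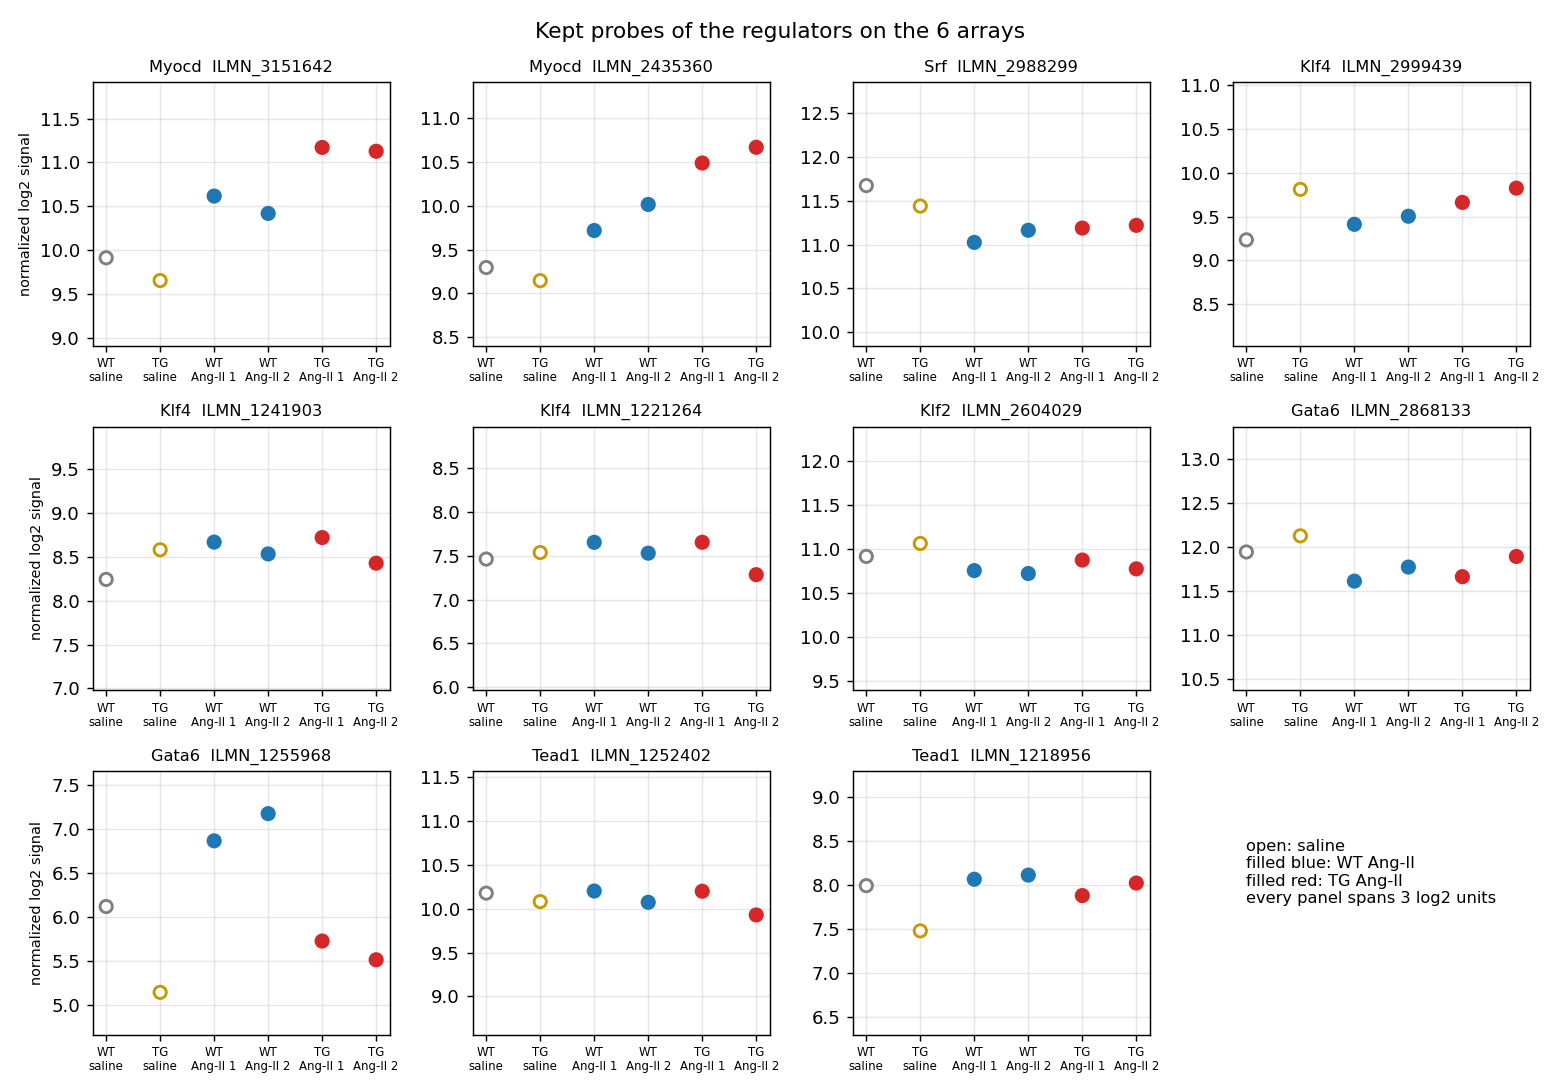
Normalized log2 signal (y axis, the same span in every panel) of the 11 detected probes of the regulators on the 6 arrays (x axis), with open points for saline, blue for WT Ang-II and red for TG Ang-II, 1 point per array. Both Myocd probes are lowest on the saline arrays and highest on the TG Ang-II arrays, Srf is highest on the saline arrays, and the Gata6 probes run different ways.

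Before normalization, the signal of ILMN_3151642 was 1392 (WT) and 961 (TG) with saline, 1609 and 1367 with Ang-II in WT, and 2081 and 1982 with Ang-II in TG, each the mean of 28 to 48 beads. The WT saline array lay between the WT Ang-II arrays on this scale, where it had the highest median signal of all arrays (130.5, against 110.0 on the lowest array). The TG Ang-II arrays stood above all others on both scales.

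Under Ang-II, Myocd was 0.63 ± 0.14 higher in TG than in WT, or 1.55-fold, which did not pass (adjusted p = 0.0595, where 5.28% of probes passed). The second probe gave 0.71 ± 0.16 (adjusted p = 0.0656). Under saline the TG array lay 0.26 ± 0.19 below the WT array (adjusted p = 0.635, where 0.185% of probes passed). The interaction, the TG response minus the WT response, was 0.89 ± 0.23, with a 95% interval from 0.31 to 1.47 (adjusted p = 0.178, where 1.19% of probes passed). The Ang-II responses of the genotypes were therefore not shown to differ for Myocd. The genotype difference under Ang-II and the interaction passed under 4 of 15 and 2 of 11 alternatives.

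Myocardin is also made by heart muscle, and heart muscle transcripts were high in the TG Ang-II arrays. Of the 15 markers listed, 13 were measured, and their summed linear signal was 4666 on the WT saline array, 3660 on the TG saline array, 2421 and 2574 on the WT Ang-II arrays and 31455 and 29607 on the TG Ang-II arrays. All 13 were detected on each TG Ang-II array, 12 in WT saline, 8 in TG saline and 5 on each WT Ang-II array. Under Ang-II, 12 of the 13 were higher in TG than in WT, where 3.02% of all genes were higher. With Ang-II 10 of the 13 rose in TG aorta, where Myocd rose, and none fell (5.23% of all genes rose). Nppa, Ckmt2, Sln, Tnni3 and Mybpc3 passed the detection filter only through the TG Ang-II arrays. For them a higher TG Ang-II signal was thus partly set in advance in both counts. In WT aorta 9 fell and none rose, where 2.63% of all genes fell. There Myocd lay higher on both Ang-II arrays (0.60 ± 0.17, not passed), in the other direction from the markers. Myh6, Myl2, Myl3, Tnni3, Nppa, Mybpc3, Sln and Ckmt2 were not detected on either WT Ang-II array. The part of heart muscle RNA in the higher Myocd signal of TG Ang-II was not tested.

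**Figure D2:**
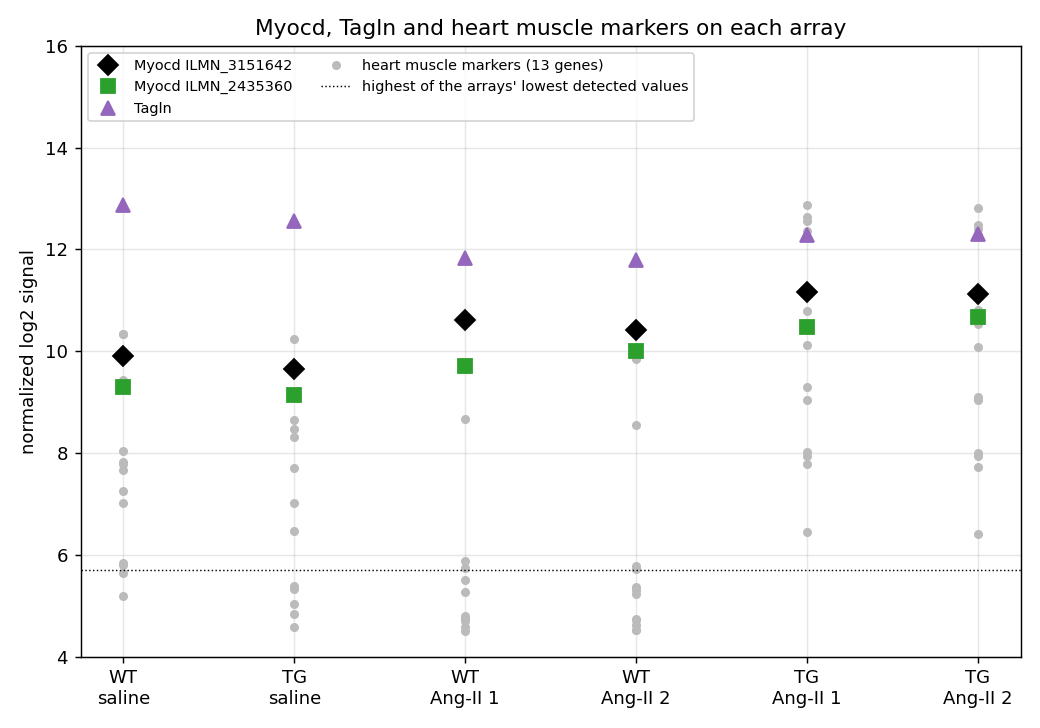
Normalized log2 signal (y axis) on each of the 6 arrays (x axis) of the Myocd probes, of the contractile gene Tagln and of 13 heart muscle markers (grey, 1 point per gene). In WT Ang-II most grey points lie near the dotted line, the highest of the arrays' lowest detected values, and in TG Ang-II both the grey points and the Myocd points are high.

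Srf, which encodes the DNA-binding partner, was lower rather than higher on the Ang-II arrays. Probe ILMN_2988299 had log2 signals of 11.67 (WT) and 11.44 (TG) with saline, 11.02 and 11.16 with Ang-II in WT, and 11.19 and 11.22 with Ang-II in TG. All 4 Ang-II arrays lay below both saline arrays, and the TG Ang-II arrays lay just above the WT Ang-II arrays. No difference passed. It was -0.58 ± 0.16 in WT (adjusted p = 0.0788) and -0.24 ± 0.16 in TG (adjusted p = 0.41), and their average was -0.41 ± 0.11 (adjusted p = 0.0555). The WT and the average difference each passed under 4 alternatives, with quantile normalization without background correction, an offset of 50, detection on all 6 arrays or a trended robust prior. The genotype difference under Ang-II was 0.11 ± 0.13 (adjusted p = 0.681). A second probe, ILMN_1242533, was not detected, at 4.44 to 5.08.

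The myocardin-related co-activators were not detected on any array. The Mrtfa probe lay between 4.49 and 4.76 and the 3 Mrtfb probes between 4.42 and 5.25, with detection p of at least 0.213 and 0.0438. Whether these transcripts changed was not detectable with these probes.

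Of the factors known to oppose myocardin, Klf4 was measured by 3 probes and Foxo4 was not detected. Klf4 probe ILMN_2999439 gave 9.23 on the WT saline array, 9.81 on the TG saline array, 9.41 and 9.50 on the WT Ang-II arrays and 9.66 and 9.82 on the TG Ang-II arrays. The WT saline array was the lowest and the TG saline array lay within the range of the TG Ang-II arrays. The Ang-II differences were 0.22 ± 0.16 in WT (adjusted p = 0.422) and -0.07 ± 0.16 in TG (adjusted p = 0.837), and the genotype difference was 0.57 ± 0.19 under saline (adjusted p = 0.266) and 0.28 ± 0.13 under Ang-II (adjusted p = 0.285). The other Klf4 probes lay between 8.24 and 8.72 (ILMN_1241903) and between 7.28 and 7.65 (ILMN_1221264), and in ILMN_1241903 the WT saline array was again the lowest while the other groups overlapped, as all groups did in ILMN_1221264. Their 95% intervals in WT ran from -0.11 to 0.82 and from -0.38 to 0.63, which include both 0 and a rise of that size. The single Foxo4 probe lay between 4.41 and 4.59, with detection p of at least 0.464.

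Klf2 was bright and nearly level. Its probe, ILMN_2604029, gave 10.91 (WT) and 11.06 (TG) with saline, 10.75 and 10.72 with Ang-II in WT, and 10.87 and 10.77 with Ang-II in TG. The Ang-II arrays lay below the saline arrays by 0.18 ± 0.15 in WT and 0.24 ± 0.15 in TG, and neither difference passed (adjusted p = 0.496 and 0.39). The summed linear signal of 9 measured endothelial markers was highest on the TG saline array, at 17488. It was 10809 in WT saline, 10303 to 10868 in WT Ang-II and 12952 to 13065 in TG Ang-II. By the median log2 signal TG saline was not the highest, at 10.27, against 10.16 in WT saline, 10.08 to 10.35 in WT Ang-II and 10.66 to 10.77 in TG Ang-II. Marker by marker, 8 of the 9 lay higher on the TG saline than on the WT saline array, and 1 lower. The median of these differences was 0.68, beside 0.01 over all genes. With Ang-II in TG, 6 of the 9 lay below saline and 3 above, with a median of -0.40 beside -0.06. The part of these markers in the level of Klf2 was not tested.

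Gata6 gave 2 answers by probe. ILMN_2868133, annotated to the RefSeq transcript, was the brightest probe of all members, at 11.94 on the WT saline array, 12.13 on the TG saline array, 11.61 and 11.77 on the WT Ang-II arrays and 11.66 and 11.89 on the TG Ang-II arrays. All Ang-II arrays lay below both saline arrays, and the averaged difference of -0.30 ± 0.13 did not pass (adjusted p = 0.152). ILMN_1255968, annotated to a cDNA clone, was dim, at 6.12 (WT) and 5.14 (TG) with saline, 6.87 and 7.18 with Ang-II in WT, and 5.73 and 5.51 with Ang-II in TG. Both WT Ang-II arrays were the highest, and within each treatment TG lay below WT. This probe was not detected in TG saline and was detected on 1 of the 2 TG Ang-II arrays. It was 1.40 ± 0.16 lower on the log2 scale in TG than in WT under Ang-II (difference -1.40, adjusted p = 0.0108), and its averaged Ang-II difference of 0.69 ± 0.14 passed (adjusted p = 0.0258), although the TG part of that average is measured against the undetected TG saline signal. With quantile normalization without background correction both values were smaller, at -0.65 and 0.31, and still passed. The genotype call was lost without WT Ang-II array 1 (-1.56) or array 2 (-1.25), with adjusted p up to 0.0734, and the averaged call without WT Ang-II array 2 (0.61) or without the detection filter. The probes disagree in sign, and which of them reports Gata6 was not tested.

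For Tead1, the factor of the MCAT element, no difference passed. Probe ILMN_1252402 gave 10.18 on the WT saline array, 10.08 on the TG saline array, 10.20 and 10.07 on the WT Ang-II arrays and 10.20 and 9.93 on the TG Ang-II arrays. The groups overlapped, and the averaged difference was -0.03 ± 0.13, with a 95% interval from -0.35 to 0.29. ILMN_1218956 gave 7.99 (WT) and 7.48 (TG) with saline, 8.07 and 8.11 with Ang-II in WT, and 7.88 and 8.02 with Ang-II in TG. Only the TG saline array stood apart, and its difference from TG Ang-II, 0.47 ± 0.16, did not pass (adjusted p = 0.139). Probe ILMN_2607207 of Tead1 was not detected.

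By count, 2 of the 11 detected member probes rose in TG, both of Myocd, where 5.84% of all probes rose, and none fell. In WT 0 of 11 passed in the limma test (9.06% of all probes), with 4 at an unadjusted p under 0.05. In the average 3 passed above 0, the Myocd probes and the dim Gata6 probe with its undetected TG saline signal, where 11.6% of all probes rose. Under Ang-II 1 was lower in TG, the dim Gata6 probe (2.55% of all probes were lower), and 0 of 11 passed in the limma test under saline (3 unadjusted, and 0.185% of all probes passed) and in the interaction (2 unadjusted, and 1.19% of all probes passed). The median log2 difference of the 11 probes was 0.13 in WT and -0.02 in TG, beside -0.05 and -0.06 over all probes.

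Contractile genes did not follow Myocd upward. Of 26 listed genes, 24 were measured, 1 probe each. In WT aorta 0 rose and 6 fell with Ang-II (6 of 24, where 2.63% of all genes fell), with a median log2 difference of -0.48 beside -0.05 over all genes. In TG aorta, where Myocd rose 2.82-fold, 1 fell and 1 rose (where 1.56% of genes fell and 5.23% rose), with a median of -0.19 beside -0.06. In the average 10 fell and 0 rose (7.01% of genes fell), with a median of -0.39. Both Ang-II arrays lay below the saline array for 22 of 24 genes in WT and 16 of 24 in TG, and over all genes for 45.1% and 46.1%. Without WT Ang-II array 1 or 2 no contractile gene passed in WT, and without any single Ang-II array none fell in TG. The average kept 2 falls without WT Ang-II array 1 or 2, 3 without TG Ang-II array 1 and 6 without TG Ang-II array 2.

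The 6 genes that fell in WT were Ppp1r14a, Tagln, Lmod1, Des, Kcnmb1 and Tpm2. Tagln, the actin-binding protein transgelin and a classic target of SRF, gave 12.87 on the WT saline array, 12.55 on the TG saline array, 11.83 and 11.79 on the WT Ang-II arrays and 12.28 and 12.31 on the TG Ang-II arrays. Both WT Ang-II arrays were lowest and the TG Ang-II arrays lay between them and the saline arrays. Tagln fell by 1.06 ± 0.15 in WT (-1.06, adjusted p = 0.0147) and differed by -0.26 ± 0.15 in TG (adjusted p = 0.347). Ppp1r14a, an inhibitor of myosin phosphatase, gave 12.18 (WT) and 11.96 (TG) with saline, 11.01 and 11.02 with Ang-II in WT, and 11.07 and 11.03 with Ang-II in TG. It was the 1 contractile gene that fell in both genotypes, by -1.16 ± 0.15 in WT (adjusted p = 0.0121) and -0.91 ± 0.15 in TG (adjusted p = 0.0255). The intermediate filament gene Des gave 10.25 on the WT saline array, 10.67 on the TG saline array, 9.27 and 9.44 on the WT Ang-II arrays and 10.57 and 10.69 on the TG Ang-II arrays. Des fell in WT (-0.89 ± 0.17, adjusted p = 0.0329) and stood at its saline level in TG (-0.04 ± 0.17, adjusted p = 0.918). Lmod1, which nucleates actin filaments, gave 12.41 (WT) and 12.25 (TG) with saline, 11.55 and 11.39 with Ang-II in WT, and 12.22 and 12.13 with Ang-II in TG, and fell in WT (-0.94 ± 0.16, adjusted p = 0.0276). Kcnmb1, a potassium channel subunit, fell by -0.82 ± 0.17 (adjusted p = 0.0393) and the tropomyosin gene Tpm2 by -0.74 ± 0.15 (adjusted p = 0.0433).

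**Figure D3:**
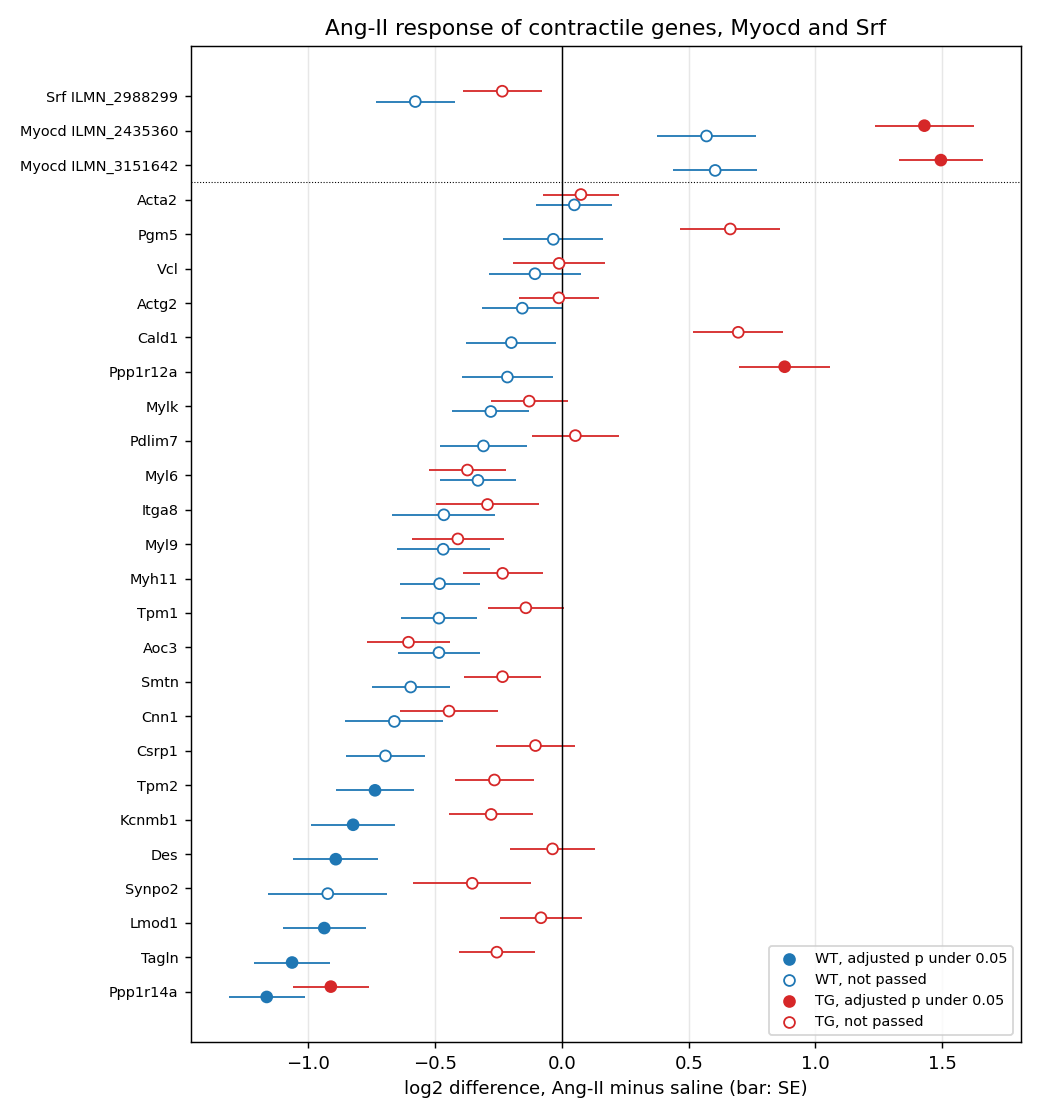
Log2 difference between Ang-II and saline (x axis, bars are SE) of 24 contractile genes, ordered by the WT difference, with the Myocd and Srf probes above the dotted line. Blue is WT and red is TG, and filled points passed at an adjusted p under 0.05. Both Myocd probes lie right of 0 in both genotypes, while 23 of 24 contractile genes in WT and 19 in TG lie left of it.

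Under Ang-II, Des (1.27 ± 0.14, adjusted p = 0.00832) and Lmod1 (0.70 ± 0.13, adjusted p = 0.0441) were higher in TG than in WT, 2 of 24 where 3.02% of genes were higher, and 0 were lower. Under saline 0 of 24 passed (0.163% of all genes), with 5 at an unadjusted p under 0.05, 4 of them lower in TG and 1 higher. Both TG Ang-II arrays lay above both WT Ang-II arrays for 15 of 24 contractile genes, and over all genes for 26.6%. No contractile gene passed this genotype comparison without WT Ang-II array 1 or 2, and 1 passed without TG Ang-II array 1 or 2. The median interaction was 0.35 beside -0.01 over all genes, and 0 of 24 passed it in the limma test (1.26% of genes passed). There were 7 at an unadjusted p under 0.05, all of them above 0. Among these, Cald1, Csrp1, Pgm5 and Ppp1r12a lay lower on the TG than the WT saline array (-1.03, -0.46, -0.58 and -0.79). Under Ang-II their genotype differences were -0.14, 0.13, 0.12 and 0.31. For Des, Lmod1 and Tagln they were 1.27, 0.70 and 0.49 under Ang-II and 0.42, -0.15 and -0.32 under saline. Heart muscle also makes desmin, and the heart muscle markers given above move with the higher Des of TG Ang-II. In WT, where Des fell with Ang-II, 9 of the 13 markers fell too (2.63% of all genes fell). Their part in the level of Des was not tested in either genotype. Markers of fibroblasts and macrophages were higher on every Ang-II array. The summed linear signal of 10 fibroblast markers was 56646 and 61436 on the saline arrays and 95733 to 100145 on the Ang-II arrays, and that of 12 macrophage markers was 8101 and 7242 against 15049 to 18104. Adipocyte, brown adipocyte and erythroid markers rose with Ang-II in WT, 6 of 8, 5 of 6 and 5 of 5 genes, where 8.72% of all genes passed. In TG 0, 1 and 0 of them rose, where 5.23% of all genes rose, and 1 adipocyte marker fell (1.56% of all genes). Erythroid markers summed to a linear signal of 24392 (WT) and 43943 (TG) with saline, 92337 and 91526 with Ang-II in WT, and 47041 and 52162 with Ang-II in TG. The part of these cell types in the lower contractile signals was not tested.

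Acta2, the most abundant smooth muscle actin, did not pass by its brightest probe, at 15.02 on the WT saline array, 15.08 on the TG saline array, 15.06 and 15.08 on the WT Ang-II arrays and 15.13 and 15.19 on the TG Ang-II arrays. These signals lie near the top of the scale, where the highest value of any probe was 15.36. Another Acta2 probe, ILMN_2710353, fell in the average (-0.53, adjusted p = 0.0437), from 15.08 and 14.64 on the saline arrays to 14.22 to 14.59 on the Ang-II arrays. Myh11, the smooth muscle myosin heavy chain, gave 14.22 and 14.11 on the saline arrays and 13.71 to 13.95 on the Ang-II arrays, all 4 lower, and did not pass in the average (-0.36 ± 0.11, adjusted p = 0.0784). Ppp1r12a, a subunit of myosin phosphatase, was the contractile gene that rose in TG (0.88 ± 0.18, adjusted p = 0.0449), with 10.23 in TG saline against 10.74 to 11.23 on the other arrays. Its other probe, ILMN_2671438, instead fell in the average (-0.49, adjusted p = 0.0351), so the rise rests on 1 probe and on the TG saline array.

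Factors related to the members changed in part. Of 22 measured, 2 rose and 1 fell in WT (8.72% of all genes passed), 4 rose and 1 fell in TG (6.78%), and 1 was higher and 2 lower in TG under Ang-II (5.35%). Hopx, a homeodomain protein known to restrain SRF in the heart, was undetected at 4.71 and 4.73 on the saline arrays, 6.95 and 6.71 on those of WT Ang-II and 5.55 and 5.68 on those of TG Ang-II. It was at least 2.29-fold higher with Ang-II in WT (adjusted p = 0.005) and at least 2.21-fold lower in TG than in WT under Ang-II (adjusted p = 0.0117). Hopx is also among the 4 rises in TG (adjusted p = 0.0442). It was undetected on all TG arrays, so that rise compares signals not above background. That call was lost under 8 of 11 alternatives. Fhl2, a LIM protein that binds SRF, gave 8.22 and 8.50 on the saline arrays, 8.69 and 8.68 on those of WT Ang-II and 9.71 and 9.79 on those of TG Ang-II. Fhl2 rose in TG (1.25 ± 0.15, adjusted p = 0.0113) and was higher in TG than in WT under Ang-II (1.06 ± 0.12, adjusted p = 0.0106). Heart muscle also makes Fhl2, and the part of the heart muscle markers in its level was not tested. Prrx1, a homeobox factor of mesenchyme, rose in both genotypes, by 0.78 ± 0.17 in WT (adjusted p = 0.044) and 1.40 ± 0.17 in TG (adjusted p = 0.0108). Among Notch effectors, Hey2 fell in TG (-1.19 ± 0.16, adjusted p = 0.0144) and was lower in TG under Ang-II (-0.79 ± 0.13, adjusted p = 0.0285), and Heyl fell in WT (-0.75 ± 0.16, adjusted p = 0.0469). Mef2c passed in TG (1.02 ± 0.16, adjusted p = 0.0235) with 9.44 in TG saline and 10.31 to 10.52 on the other arrays, so that only the TG saline array stood apart. Without WT Ang-II array 1 or 2 the genotype calls of Hopx, Fhl2 and Hey2, the WT calls of Prrx1 and Heyl and the TG call of Mef2c were lost (adjusted p up to 0.0892, 0.0874, 0.166, 0.147, 0.154 and 0.0628). Hey2 and Heyl were also lost without either TG Ang-II array, and Mef2c without TG Ang-II array 1.

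Some targets of SRF with ternary complex factors fell. Of 9 measured immediate early genes, 0 rose and 4 fell in the average (Fos, Fosb, Egr1 and Egr3, where 7.01% of all genes fell). In TG 3 fell, Fos, Fosb and Egr3 (1.56% of all genes), and in WT 1 fell, Fosb (2.63%). On the TG saline array 8 of the 9 lay higher than on the WT saline array, and 1 lower. The median of these differences was 0.30, beside 0.01 over all genes. The median Ang-II difference was -0.23 in WT and -0.68 in TG, and the TG and averaged differences are both measured against that TG saline array. Egr3 passed in TG at an adjusted p that rounds to 0.05, and that call was lost under 6 of 12 alternatives. Fos gave 9.96 (WT) and 11.30 (TG) with saline, 9.48 and 9.58 with Ang-II in WT, and 9.43 and 9.50 with Ang-II in TG, and fell by -1.84 ± 0.15 in TG (adjusted p = 0.00603). The TG saline array was far above the others, and without it the fall in TG has no reference. Fosb gave 8.26 and 8.27 on the saline arrays and 6.78 to 7.39 on the Ang-II arrays, and fell in both genotypes (-0.99 ± 0.20 in WT, adjusted p = 0.0378, and -1.35 ± 0.20 in TG, adjusted p = 0.0185). The WT call of Fosb was lost without WT Ang-II array 1 or 2 (adjusted p up to 0.133), and the averaged call of Egr1 (-0.45 ± 0.12, adjusted p = 0.0493) without any single Ang-II array (up to 0.118).

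YAP and TEAD targets, the readout of Tead1 and its relatives, split. Of 11 measured, 0 passed in WT in the limma test (1 unadjusted, and 8.72% of all genes passed), and 2 rose and 2 fell in TG (5.23% and 1.56% of all genes). Ankrd1, a muscle ankyrin repeat protein also abundant in heart, gave 9.98 and 10.73 on the saline arrays, 10.15 and 10.09 on those of WT Ang-II and 11.61 and 11.68 on those of TG Ang-II, and was 1.53 ± 0.12 higher in TG under Ang-II (adjusted p = 0.00347). Ccn1, a matricellular protein, gave 11.22 and 11.08 on the saline arrays, 11.37 and 11.61 on those of WT Ang-II and 9.79 and 9.76 on those of TG Ang-II. Ccn1 was lower in TG under Ang-II (-1.72 ± 0.14, adjusted p = 0.0036), the opposite direction, and both TG Ang-II arrays lay below every other array. Tgfb2 rose in TG (0.95 ± 0.20, adjusted p = 0.0497) and Nt5e fell there (-0.89 ± 0.17, adjusted p = 0.0365), with TG saline the highest array for Nt5e. The genotype calls of Ankrd1 and Ccn1 held under all 15 alternatives. Between Ang-II and saline in TG, the rise of Ankrd1 was lost under 4 of 12 alternatives, and the fall of Ccn1 held under all 12. The calls of Tgfb2 and Nt5e between Ang-II and saline in TG were lost without WT Ang-II array 1 or 2 or TG Ang-II array 1, and Nt5e also without TG Ang-II array 2 (adjusted p up to 0.101 and 0.0827).

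Endothelial genes that KLF2 and KLF4 are known to control were 0 of 7 past the limma test in WT (2 unadjusted, and 8.72% of all genes passed) and 1 of 7 in TG (6.78%). In the average 1 rose and 2 fell, where 17.5% of all genes passed. Nos3, the endothelial nitric oxide synthase, gave 8.98 on the WT saline array, 9.88 on the TG saline array, 8.45 and 8.46 on the WT Ang-II arrays and 9.02 and 8.85 on the TG Ang-II arrays, and fell in TG (-0.95 ± 0.16, adjusted p = 0.0284). TG saline stood above all other arrays, as it did for the summed signal of the endothelial markers, which include Nos3. It did not for the median of their log2 signals, although 8 of the 9 markers lay higher in TG saline than in WT saline. In the average Nos3 fell by -0.74 ± 0.11 (adjusted p = 0.0121), a call that held under all 11 alternatives (adjusted p up to 0.0446). Slc9a3r2, a scaffold protein, fell in the average too (-0.49 ± 0.11, adjusted p = 0.0293), and this call was lost under 4 of 11 alternatives, those without 1 Ang-II array (adjusted p up to 0.0814). Endothelin (Edn1) rose in the average (0.61 ± 0.12, adjusted p = 0.0251). The TG call of Nos3 and the averaged call of Edn1 were lost without WT Ang-II array 1 or 2, and Nos3 also without TG Ang-II array 2 (adjusted p up to 0.0698 for Nos3 and 0.074 for Edn1).

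Markers of modulated smooth muscle, a state in which contractile genes are low and matrix genes high, went up in part. Of 11 measured, 3 rose and 0 fell in each genotype (8.72% of all genes passed in WT, and 5.23% rose in TG), Col8a1, Lgals3 and Lum in both. Col8a1, a collagen of the vessel wall, gave 10.44 and 10.33 on the saline arrays, 12.13 and 12.12 on those of WT Ang-II and 11.79 and 11.69 on those of TG Ang-II, a rise of 1.68 ± 0.15 in WT (adjusted p = 0.00521) and 1.41 ± 0.15 in TG (adjusted p = 0.00936). Fn1 (-0.84 ± 0.12, adjusted p = 0.0203) and Tnfrsf11b (-1.31 ± 0.17, adjusted p = 0.0139) were lower in TG than in WT under Ang-II. Col8a1 held in both genotypes under every alternative, while Lgals3, Lum, Fn1 and Tnfrsf11b lost their calls without WT Ang-II array 1 or 2 (adjusted p up to 0.0712, 0.0794, 0.135 and 0.106). Lgals3 in TG and Fn1 were also lost without TG Ang-II array 1 or 2, and Lum in TG without TG Ang-II array 2. Lum is also on the fibroblast list and Lgals3 is abundant in macrophages, whose markers were higher on all Ang-II arrays.

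The genes whose pattern over the 6 arrays was most like that of Myocd were sought among 3308 genes with an SD of at least 0.3. The highest Pearson r with ILMN_3151642 were 0.991 for Ivns1abp, 0.989 for Clec2d, 0.988 for Cpxm2, 0.986 for Csf2rb2 and 0.985 for Luc7l2, and 56 genes lay above 0.95. Csf2rb2 was detected on 2 of the 6 arrays alone, those of TG Ang-II, so that its r rests on signals not above background elsewhere. The points share their arrays and the correlation is a description of 6 values. Ivns1abp gave 9.46 and 9.40 on the saline arrays, 10.32 and 10.20 on those of WT Ang-II and 10.98 and 10.80 on those of TG Ang-II. None of the 5 is on the contractile list.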

How the data were processed

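Per the file headers, the deposited intensity columns hold the mean bead signal of each probe on 1 array, on a linear scale and not normalized, with its standard error and number of beads (a median of 41 to 43). Each probe's detection p-value on an array is deposited beside it, per the file headers. The authors' deposited log2 value table equals, within 1e-08 for all 271686 values, neqc normalization of the intensities with an offset of 16. Per the submitters' processing notes, GenomeStudio 2011.1 and limma 3.22.1 were used, with no role given.

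Here neqc and the fit were run in limma 3.58.1 (R 4.3.3). Probes with detection p under 0.01 on at least 2 of 6 arrays were kept. A model of 4 group means (lmFit, eBayes, 2 residual and 3.75 prior degrees of freedom) was fitted to all arrays, with Benjamini-Hochberg adjustment over the kept probes of a comparison and a threshold of 0.05. The number of arrays limits the precision, and the median SE of an Ang-II response within a genotype was 0.18. Symbols came from the platform annotation, updated through RefSeq (GRCm38.p6). A list gene is represented by its brightest kept probe, here the one with the highest mean over the arrays. The "at least" folds set an undetected group at its own value or the lowest detected value (5.54 to 5.69), whichever was higher. Members and lists were chosen with earlier results of these data known. Every member probe is named, and of each list up to 6 genes that passed. One list that was fitted is not reported here. The fit was tested on simulated data. Same-numbered Ang-II arrays deviated together with r = 0.115 over 2 pairs, so the numbers were not taken to pair them. The alternatives were an offset of 50, quantile normalization without background correction, other detection filters, the deposited values, a trended robust prior, arrays left out, a replicate block, the Ang-II arrays alone, other probes, and no heart muscle, adipocyte or erythroid marker probes.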

Additional observations from a re-analysis of the deposited data

Results flagged for a closer look

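Among the 117 genes of the members and lists, the difference between the Ang-II responses of the genotypes itself passed the limma interaction test for 11 genes, all of them heart muscle markers, which fell or lay lower with Ang-II in WT. The TG response minus the WT response was 7.78 on the log2 scale for Nppa, 6.63 for Myl3, 6.41 for Mb, 6.03 for Myl2, 5.76 for Myh6 and 5.03 for Ckmt2. It was 4.81 for Sln, 4.52 for Actc1, 3.69 for Mybpc3, 3.26 for Tnni3 and 1.99 for Myl7, with adjusted p from 0.000974 for Nppa to 0.0227 for Tnni3. Ang-II and saline differed by -2.20 in WT and 4.21 in TG for Mb, which was detected on every array, and by -2.04 in WT and -0.05 in TG for Myl7, where the TG response was near 0. Of these genes, 8 were not detected on either WT Ang-II array, so the fitted values set a signal not above background against a measured one. With undetected groups set at the lowest detected value or their own, whichever was higher, the difference was at least 6.06 for Myl3, 5.65 for Nppa, 5.24 for Myh6, 5.08 for Myl2, 4.34 for Sln, 3.59 for Ckmt2 and 2.41 for Tnni3. Mybpc3 was detected in TG Ang-II alone, which leaves no bound for it. Nppa, Ckmt2, Sln, Tnni3 and Mybpc3 entered the test only through the TG Ang-II arrays, where they are high. No detected probe of Myocd or of another regulator passed this test. No group holds 4 arrays, so no array could be tested for standing apart within its group.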

How the results depend on the processing

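Both Myocd rises that passed, in TG and in the average, kept their direction and call under every alternative run, and no Myocd difference changed sign where it was called. The Myocd difference in WT (0.60) also passed with quantile normalization without background correction (0.56), an offset of 50 (0.59), detection on all 6 arrays (0.60) and a trended robust prior (0.60), and ran from 0.51 to 0.70 with an array left out. The Myocd difference between genotypes under Ang-II (0.63) passed under the same alternatives (0.60, 0.62, 0.63 and 0.63, from 0.53 to 0.73 with an array left out), and its interaction (0.89) with quantile normalization (0.84) and the trended prior (0.89). Member probes that passed in WT (0) numbered 4 with quantile normalization, 3 with the offset of 50, 2 with detection on all arrays, 4 with the trended prior and 0 to 1 with an array left out. In the average (3) they were 5 with quantile normalization and 5 with the trended prior. Between genotypes under Ang-II (1) they were 3, 3, 2 and 3 under those 4 alternatives and 0 to 1 with an array left out, and the replicate block gave 2, adding the second Myocd probe (0.71). In the interaction (0) they were 2 with quantile normalization and 2 with the trended prior. Contractile genes that fell in WT (6) numbered 13 with quantile normalization, 16 with the trended prior, 2 without a detection filter and 0 to 6 with an array left out, in TG (1) 2, 4 with the trended prior, 2 with the offset of 50 and 0 to 1, and in the average (10) 16, 17, 4 without a filter and 2 to 6. Contractile genes higher in TG under Ang-II (2) numbered 4 with quantile normalization, 4 with the offset of 50, 5 with the trended prior, 1 without a filter and 0 to 2 with an array left out, those that passed under saline (0) 2, 1 and 3, and in the interaction (0) 5, 1 and 6. The other Gata6 probe reversed its averaged difference (0.69 in place of -0.30) and its genotype difference under Ang-II (-1.40 in place of 0.09). Fits with 1 saline array left out were added after seeing the data. The deposited values equal the normalized values used here, so that run could only repeat the main result. The same holds for a fit without a saline array that the comparison does not use. The cause of these shifts was not tested. With 1 array left out, limma assumes that a lone array varies like the other groups. Probes near background, which include every probe of Mrtfa, Mrtfb and Foxo4, limit what can be said of those genes.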

Other observations

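Some values that fit no comparison above were chosen after they were seen. Cap1, an actin-binding protein, gave 7.39 in WT saline, 8.91 and 8.23 in WT Ang-II, 12.49 in TG saline, and 12.34 and 12.40 in TG Ang-II. It was higher in TG than in WT both under saline (5.10 ± 0.33, adjusted p = 0.0155) and under Ang-II (3.80 ± 0.24, adjusted p = 0.00151). Several probes stood low on the TG saline array alone: Cald1 (caldesmon, an actin-binding protein) gave 11.11 there and 11.72 to 12.15 elsewhere, and Mylk probe ILMN_1219471 (myosin light chain kinase) gave 12.46 there and 12.90 to 13.32 elsewhere. TG saline was also the lowest array for Cald1 probe ILMN_1254073 (8.02, against 9.02 to 9.86 elsewhere) and Mylk probe ILMN_2662602 (11.32, against 11.75 to 12.32). It was not the lowest for the other 3 Cald1 probes, and Mylk by its brightest probe gave 14.15 in TG saline and 13.90 to 14.21 elsewhere.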
